A study of Mus musculus with 3 samples.

Results

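The p53 pathway and the p53 antagonists that have been linked to CDK6 were described in 3 stable BCR::ABL1+ cell lines that carry kinase inactive CDK6 (*Cdk6* KM/KM). The members are 10 genes chosen by symbol, *Trp53*, *Mdm2*, *Mdm4*, *Ppm1d*, *Prmt5*, *Zmat3*, *Ccng1*, *Eda2r*, *Phlda3* and *Sesn2*, and all 10 were matched by Ensembl identifier among the 50686 genes of the count table. The lines grew out of bone marrow cells of mice homozygous for the CDK6-K43M mutation after retroviral transduction with BCR-ABL(p185), an oncogenic tyrosine kinase, and the labels call them Pre/Pro-B-cells. The 3 lines are separate outgrowths of 1 genotype, they share the oncogene and the culture medium, and the labels give neither the age of the donors nor any treatment. *Cdk6* wildtype and knockout lines were not analysed here, so the values are levels in the kinase inactive lines and differences between these lines, and none is a difference between genotypes.

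p53, encoded by *Trp53*, is a transcription factor that is kept low by the ubiquitin ligase MDM2 and is restrained by its relative MDM4. After DNA damage or oncogene stress it is stabilised and induces genes of cell cycle arrest, repair and death, and *Mdm2* itself as a negative feedback. In BCR::ABL1+ leukemia, loss of p53 function is a known route of transformation, and CDK6 kinase activity is known to induce the p53 antagonists *Prmt5*, *Ppm1d* and *Mdm4*. The members thus fall into *Trp53*, the 3 CDK6-linked antagonists and 6 further genes that p53 can induce, as it can *Ppm1d*.

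Poly(A) RNA was sequenced, and libraries held from 19633463 to 25773221 counts on genes. Levels are CPM, read counts scaled to library size with TMM, a trimmed mean of ratios between libraries. A gene without counts could be present at up to 3 counts, or 0.118 to 0.152 CPM, and this limit and all intervals cover counting error only. All 9 markers of B-lineage precursors were read. The weakest were *Dntt*, with 0.967 to 4.28 CPM, and *Rag1*, with 22.4 to 91.4 CPM. Of 14 markers of myeloid, T, erythroid and stromal cells, 8 were at 0 in all lines and all 14 together summed to 2.07, 2.23 and 4.04 CPM in lines 1, 2 and 3. Most of this sum was the myeloid gene *Lyz2*, and its part in any difference between lines was not tested.

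The promoters of 9 members were found in the RefSeq table for GRCm38.p6, the assembly of the count table, whereas *Zmat3* has no entry. The 250 bases before the transcription start were searched for the p53 decamer, the unit that a p53 response element holds as a pair, which reads the same on both strands. It occurred in 4 of 10 member promoters (*Mdm4* has a pair of starts), against 7.13% of all 32851 promoters of this length. Each of the 4 held 1 match, so none held a pair of matches in these bases. Sequence outside them was not searched, and binding was not measured. Capitals mark the decamer in the following stretches, which are shown because they hold a match and belong to genes that were read in all lines. They run 5′ to 3′ on the strand of the gene, *Trp53* at chr11:69580109-69580358 (plus), *Mdm2* at chr10:117710759-117711008 (minus), *Ccng1* at chr11:40755287-40755536 (minus) and *Ppm1d* at chr11:85311004-85311253 (plus).
Trp53: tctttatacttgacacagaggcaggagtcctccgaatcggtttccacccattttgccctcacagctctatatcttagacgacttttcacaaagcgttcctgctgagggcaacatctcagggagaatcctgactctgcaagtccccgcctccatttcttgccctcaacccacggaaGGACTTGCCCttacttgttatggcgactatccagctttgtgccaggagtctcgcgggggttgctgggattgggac
Mdm2: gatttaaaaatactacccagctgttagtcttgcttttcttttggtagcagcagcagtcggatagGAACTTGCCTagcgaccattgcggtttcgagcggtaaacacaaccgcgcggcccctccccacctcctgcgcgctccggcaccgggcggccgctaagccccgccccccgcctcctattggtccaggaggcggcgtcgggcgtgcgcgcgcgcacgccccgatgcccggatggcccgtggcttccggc
Ccng1: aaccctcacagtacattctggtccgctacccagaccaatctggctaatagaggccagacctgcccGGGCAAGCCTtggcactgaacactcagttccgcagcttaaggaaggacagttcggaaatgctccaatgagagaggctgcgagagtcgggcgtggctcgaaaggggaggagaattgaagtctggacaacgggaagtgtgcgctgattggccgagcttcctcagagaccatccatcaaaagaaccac
Ppm1d: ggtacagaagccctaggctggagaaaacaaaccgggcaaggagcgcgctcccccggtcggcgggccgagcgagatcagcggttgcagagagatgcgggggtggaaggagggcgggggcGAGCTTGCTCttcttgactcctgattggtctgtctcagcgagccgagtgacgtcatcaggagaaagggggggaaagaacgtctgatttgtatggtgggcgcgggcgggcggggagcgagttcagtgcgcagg

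The promoters of *Phlda3* at chr1:135765835-135766084 (plus) and *Eda2r* at chrX:97377210-97377459 (minus) are shown because both genes were silent or nearly so in these lines. Neither holds the decamer in these letters, which says nothing of binding elsewhere in the gene. The promoters of *Prmt5*, *Sesn2* and *Mdm4* (at either start), genes that were read in all lines, do not hold it either. The *Phlda3* stretch has 18 CpG dinucleotides and that of *Eda2r* has 4, where the median of all promoters is 6. Among members read in all lines, *Sesn2* also has 18, and the number ran from 4 at a start of *Mdm4* to 29 in *Mdm2*.
Phlda3: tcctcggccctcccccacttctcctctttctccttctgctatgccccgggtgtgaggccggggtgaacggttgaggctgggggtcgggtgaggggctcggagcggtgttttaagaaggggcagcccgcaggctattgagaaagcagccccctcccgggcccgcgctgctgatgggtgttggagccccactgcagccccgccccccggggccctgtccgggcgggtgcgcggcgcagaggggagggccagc
Eda2r: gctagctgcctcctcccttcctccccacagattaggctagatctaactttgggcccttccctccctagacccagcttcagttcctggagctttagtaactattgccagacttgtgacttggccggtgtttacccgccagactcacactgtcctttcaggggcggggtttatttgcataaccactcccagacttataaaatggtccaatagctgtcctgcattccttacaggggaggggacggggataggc

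*Trp53* (ENSMUSG00000059552.13, chromosome 11, 69580359 to 69591873 in mm10) was well expressed in every line, and its level differed between lines by more than counting noise. Lines 1, 2 and 3 gave 4084, 4796 and 7449 counts, which correspond to 188, 243 and 292 CPM (mean 241 ± 52.2 CPM, SD, n = 3). Line 1 was at 0.643 of the level of line 3 (95% exact binomial interval 0.619 to 0.669), and line 2 lay between them, apart from both. Whether fewer cells or less RNA per cell carried the transcript cannot be told apart in bulk RNA. The chi-square test of homogeneity gave an adjusted p of 1e-112. It sets libraries against each other, and bears on no condition. Between its highest and lowest line *Trp53* ranged by 0.63 on the log2(CPM + 1) scale, and of the 83 expressed genes (mean log2(CPM + 1) of at least 2) within 5 Mb of it, 11 ranged more. Of the 50-base stretches of its main transcript, the one with the longest coding part, 8.94% also occur in the processed pseudogene *Trp53-ps*, which had 0 counts. No transcript level shows whether the protein is functional or mutated.

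The chi-square test asks whether the reads of a gene are shared among the libraries in proportion to their size, with Benjamini-Hochberg adjustment at 0.05 over the 13974 genes with at least 10 counts in total. All 8 members that entered the test differed between lines, where 66.8% of all genes tested did, so that at this depth a difference between lines is the usual case. *Eda2r* and *Phlda3* had too few counts to enter. The median range between the highest and the lowest line was 0.39 over the 8 members on the log2(CPM + 1) scale, and 0.32 over all genes tested. Only *Zmat3* was also at least 2-fold apart on this scale, a range of 1 or more, where 10.9% of all genes tested were.

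**Figure D1:**
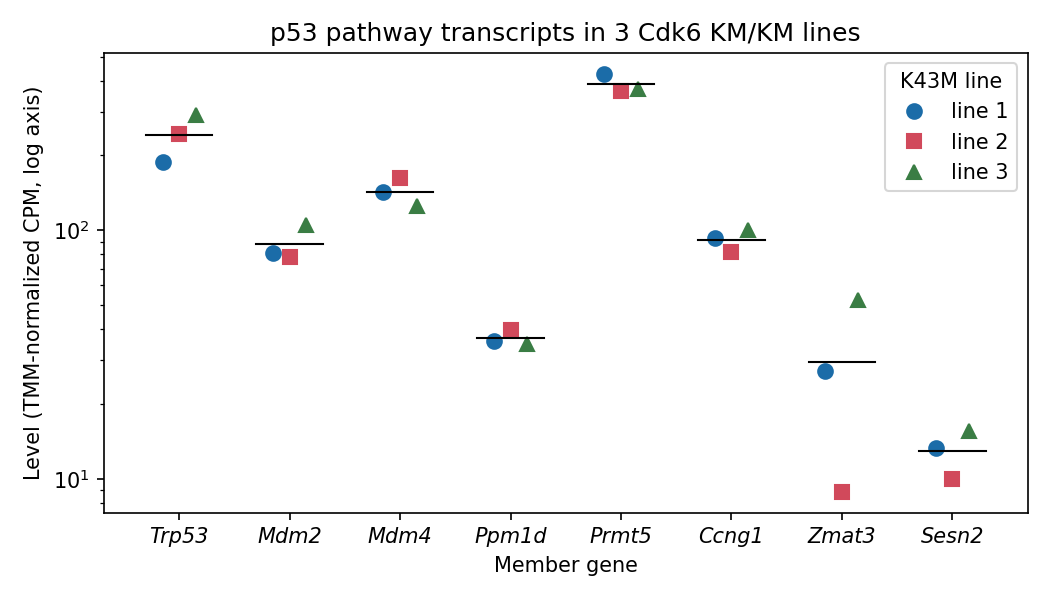
Level of the 8 measured members in each *Cdk6* KM/KM line in TMM-normalized CPM on a log axis, with 1 symbol per line and a bar at the mean of the lines. *Prmt5* and *Trp53* are highest, and *Zmat3* spreads most, from 8.87 CPM in line 2 to 52.6 CPM in line 3.

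The 3 CDK6-linked antagonists were all expressed in the lines without CDK6 kinase activity. *Prmt5* and *Ppm1d* ranged less between lines than the median gene, and *Mdm4* slightly more, with 0.37 against 0.32. *Prmt5*, an arginine methyltransferase that modifies p53 and splicing factors (ENSMUSG00000023110.12, chromosome 14, 54507187 to 54517525), had 426, 364 and 370 CPM (mean 387 ± 34.6 CPM, SD, n = 3). Line 1 was 1.17-fold above line 2 (interval 1.14 to 1.21). Lines 2 and 3 could not be told apart, with a ratio of 0.984 and an interval from 0.954 to 1.01. Without line 1 the call for *Prmt5* was lost, with a range of 0.02 and an adjusted p of 0.42.

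*Mdm4*, which binds the transactivation domain of p53 (ENSMUSG00000054387.13, chromosome 1, 132959484 to 133030561), had 142, 162 and 125 CPM (mean 143 ± 18.2 CPM, SD, n = 3). Its order was the opposite of *Trp53* between lines 2 and 3, with line 2 1.29-fold above line 3 (interval 1.23 to 1.36). All 3 pairs of lines differed by more than counting error. A pseudogene, *Mdm4-ps*, holds 11.7% of the stretches of its main transcript and had at most 2 counts in a line.

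*Ppm1d*, which encodes the phosphatase WIP1 that removes damage-induced phosphates from p53 and its kinases (ENSMUSG00000020525.17, chromosome 11, 85311244 to 85347066), was the steadiest member. It had 35.9, 39.6 and 35.0 CPM (mean 36.8 ± 2.43 CPM, SD, n = 3). Its adjusted p of 0.049 was just under the threshold, and with DESeq2 size factors it was 0.052. Line 1 could not be told apart from line 2 (ratio 0.907, interval 0.820 to 1.00) or from line 3 (ratio 1.03, interval 0.931 to 1.13).

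Set against *Trp53* in the same library, per kilobase of merged exons, the antagonists were lowest in line 3. The ratio of *Prmt5* to *Trp53* was 2.32, 1.53 and 1.29 in lines 1, 2 and 3. The ratio of *Mdm4* to *Trp53* was 0.207, 0.182 and 0.117, and that of *Ppm1d* to *Trp53* was 0.243, 0.208 and 0.152. The 3 ratios share the *Trp53* level as denominator. *Mdm2* set against *Trp53* had another order, 0.342, 0.257 and 0.285. The size of these ratios depends on the length used. Their order over the lines cannot, because a gene has the same length in every line. By main transcript, *Prmt5* to *Trp53* was 1.49, 0.985 and 0.832, *Mdm4* to *Trp53* 0.700, 0.616 and 0.396, and *Ppm1d* to *Trp53* 0.117, 0.0995 and 0.0731.

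PRMT5 works with partners, the WD-repeat protein MEP50 (*Wdr77*) and the adaptors pICln (*Clns1a*), RIOK1 and COPRS. *Wdr77* had 120, 108 and 115 CPM, *Clns1a* 146, 162 and 154 CPM, and *Riok1* 36.9, 36.4 and 42.2 CPM. *Coprs* had 2.72, 2.18 and 3.42 CPM and did not pass the test (adjusted p = 0.067). The other 3 of the 4 partners passed, against 66.8% of all genes tested, each with a range of at most 0.21 on the log2 scale. None was 2-fold apart, where 10.9% of all genes tested were. In line 1, which had most *Prmt5*, *Wdr77* was the only partner of the 4 at its highest.

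Apart from *Ppm1d*, 6 members are genes that p53 can induce, and the 4 of them that were measured were each lowest in line 2 and highest in line 3. Of all genes tested, 12.1% differed with this order. *Ppm1d* ran the other way, highest in line 2 and lowest in line 3, and the order was noticed after the values were seen. *Mdm2* (ENSMUSG00000020184.15, chromosome 10, 117688875 to 117710758) had 80.9, 78.3 and 105 CPM (mean 88.0 ± 14.6 CPM, SD, n = 3). Line 3 was 1.34-fold above line 2 (interval 1.26 to 1.43), whereas lines 1 and 2 could not be told apart (ratio 1.03, interval 0.964 to 1.11). Without line 3 the *Mdm2* range fell to 0.05 and the call was lost, with an adjusted p of 0.43.

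*Ccng1*, which encodes cyclin G1, a regulator of MDM2 through a phosphatase (ENSMUSG00000020326.7, chromosome 11, 40748552 to 40755311), had 92.7, 81.5 and 99.8 CPM (mean 91.3 ± 9.23 CPM, SD, n = 3). Its highest and lowest lines were 1.22-fold apart (interval 1.15 to 1.30). Without line 2 the call was lost, with an adjusted p of 0.071.

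*Sesn2*, a stress-induced inhibitor of mTORC1 (ENSMUSG00000028893.8, chromosome 4, 132492032 to 132510501), was low, with 13.3, 9.98 and 15.5 CPM (mean 12.9 ± 2.80 CPM, SD, n = 3). Line 3 was 1.56-fold above line 2 (interval 1.31 to 1.86), and without line 2 the adjusted p was 0.099. *Sesn2* also responds to ATF4, the factor of the integrated stress response. Of the ATF4-linked genes, *Atf4* had 351, 353 and 321 CPM, *Asns* 207, 176 and 190 CPM, *Trib3* 17.4, 12.9 and 10.1 CPM, and *Chac1* 2.03, 3.39 and 2.94 CPM. None of these 4 had the line order of *Sesn2*. *Ddit3*, with 8.38, 8.26 and 9.74 CPM, had that order but did not pass the test (adjusted p = 0.22). The part of ATF4 in the *Sesn2* level was not tested.

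*Zmat3*, which encodes an RNA-binding zinc finger protein that alters splicing downstream of p53 (ENSMUSG00000027663.12, chromosome 3, 32334792 to 32366014), varied most. Its 590, 175 and 1340 counts correspond to 27.2, 8.87 and 52.6 CPM (mean 29.6 ± 22.0 CPM, SD, n = 3). Line 3 was 5.93-fold above line 2 (interval 5.07 to 6.99) and line 1 was 3.07-fold above line 2 (interval 2.59 to 3.65). Its range of 2.44 was exceeded by 1.70% of all genes tested, and the adjusted p was 4.6e-150. Without line 2 it was no longer 2-fold apart, though it still differed between lines.

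Of 27 expressed genes within 5 Mb of *Zmat3*, none ranged as widely, with single genes from 0.06 to 2.24 and a median of 0.23. The nearest genes with at least 5 CPM were *Pik3ca* and *Zfp639* on the right and *Skil* and *Prkci* on the left, which were looked up after the values of *Zmat3* were seen. *Pik3ca* had 98.3, 108 and 107 CPM, *Skil* 28.2, 28.8 and 33.1 CPM, and *Prkci* 60.2, 67.5 and 70.7 CPM. *Zfp639* had 48.5, 47.5 and 55.4 CPM, which is the line order of *Zmat3* with a range of 0.22, and 7 of the 27 genes had that order. Of the stretches of the main transcript of *Zmat3*, 1.30% occur in other annotated genes.

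**Figure D2:**
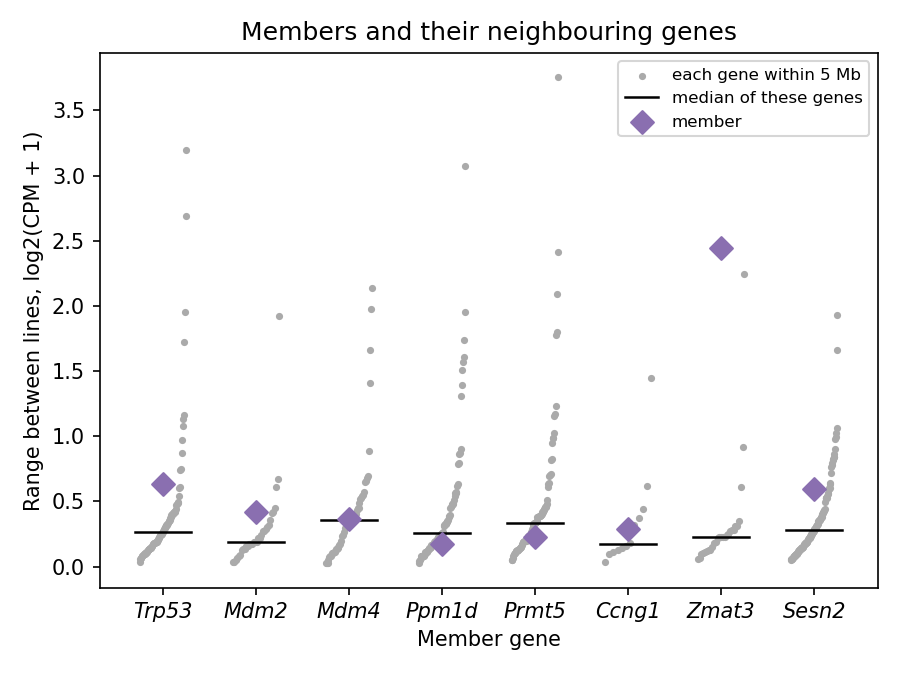
Range between the lowest and the highest line on the log2(CPM + 1) scale for each measured member (diamond), for every expressed gene within 5 Mb of it (grey points, sorted) and for the median of these genes (black line). *Zmat3* lies above all its neighbours, whereas 54 of 79 genes around *Ppm1d* and 56 of 85 around *Prmt5* ranged more than the member.

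*Eda2r* and *Phlda3*, both known p53 targets in other tissues, were not expressed at this depth. *Eda2r*, which encodes a receptor of the TNF family (ENSMUSG00000034457.10, chromosome X, 97333840 to 97377216), had 0 counts in all 3 lines. *Phlda3*, an inhibitor of AKT signalling (ENSMUSG00000041801.5, chromosome 1, 135766119 to 135769136), had 1 count in line 1 and 0 in the others. Genes within 5 Mb of both were read. The 35 around *Eda2r* had a median range of 1.00 between lines, with single genes up to 5.13, and the 51 around *Phlda3* one of 0.36.

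Levels can be set against each other only per length. Per kilobase of merged exons, the order was *Prmt5* with 97.7 ± 8.73, *Trp53* with 59.6 ± 12.9, *Ccng1* with 26.0 ± 2.63, *Mdm2* with 17.3 ± 2.88, *Ppm1d* with 11.6 ± 0.765, *Mdm4* with 9.67 ± 1.23, *Sesn2* with 3.72 ± 0.805 and *Zmat3* with 2.58 ± 1.92 CPM per kilobase (SD, n = 3 each). The lines of *Sesn2* and *Zmat3* overlapped. Those of *Ppm1d*, from 11.0 to 12.5, and of *Mdm4*, from 8.47 to 10.9, lay side by side without overlap. The place of *Mdm4* also rests on the length chosen, since its annotated exons merge to 14798 bases and its main transcript has 1914. By the main transcript, *Mdm4* had 74.8 ± 9.53 CPM per kilobase and came after *Prmt5* with 144 ± 12.8 and *Trp53* with 136 ± 29.5, whose lines then overlapped. *Mdm2* had 28.4 ± 4.72 on this scale and came before *Ccng1* with 26.0 ± 2.63, the reverse of their order by merged exons. The lines of this pair overlapped by main transcript, from 25.3 to 33.8 for *Mdm2* and from 23.2 to 28.4 for *Ccng1*. *Zmat3* with 3.79 ± 2.82 then came before *Sesn2* with 3.72 ± 0.805, again with overlap.

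**Figure D3:**
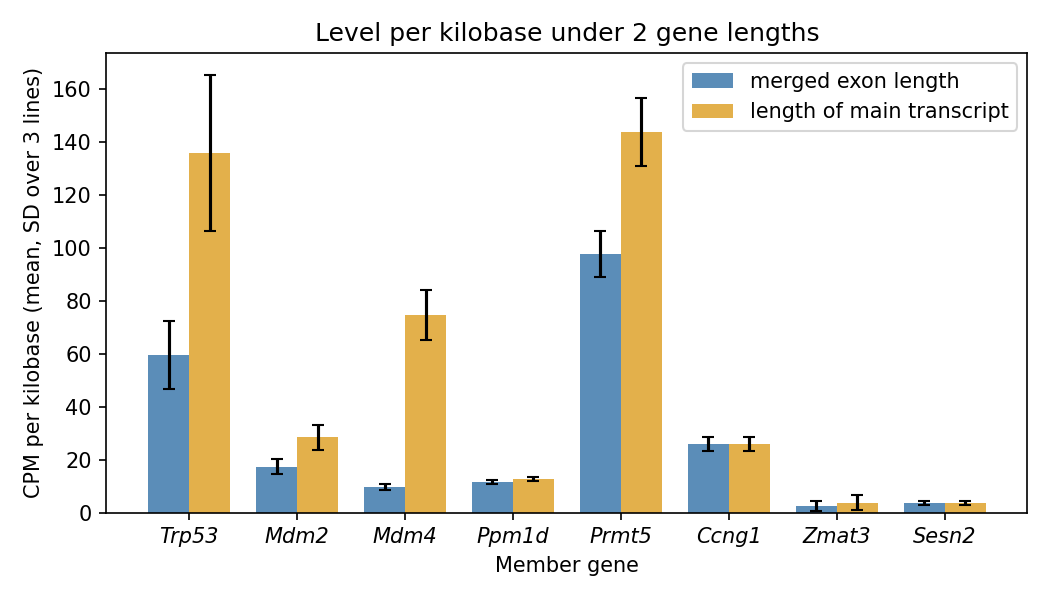
Mean level of the measured members in CPM per kilobase with SD over the 3 lines, once by merged exon length and once by the length of the main transcript. *Prmt5* and *Trp53* lead on both scales, and *Mdm4* moves from 9.67 to 74.8.

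A list of 28 other p53 targets was read alongside the members. Of these, 24 were measured, and 17 of the 24 differed between lines, or 70.8%, against 66.8% of all genes tested. *Plk2*, *Perp*, *Gdf15* and *Ak1* had fewer than 10 counts in total, and *Perp* and *Gdf15* had 0. *Cdkn1a*, which encodes the CDK inhibitor p21, was low, with 10.5, 7.19 and 8.24 CPM (mean 8.65 ± 1.69 CPM, SD, n = 3). Its order, with line 1 highest, was not that of *Trp53*. A gene on the opposite strand overlaps 7.68% of its exon bases. *Trp53cor1*, the non-coding neighbour of *Cdkn1a*, had 1.89, 0.912 and 0.667 CPM.

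Among the death genes, *Bax* had 68.1, 59.0 and 84.2 CPM and was lowest in line 2. *Pmaip1*, which encodes NOXA, had 16.9, 10.1 and 21.0 CPM, with line 3 2.08-fold above line 2 (interval 1.76 to 2.46). *Bbc3*, which encodes PUMA, had 4.24, 3.85 and 2.94 CPM and did not pass the test (adjusted p = 0.08). The death receptor genes *Fas* and *Tnfrsf10b* stayed under 0.4 CPM in every line, with 15 counts or fewer over all lines.

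On the log2(CPM + 1) scale, 3 of the 24 measured targets were at least 2-fold apart, against 10.9% of all genes tested. *Pmaip1* and *Trp53cor1*, which were 2.08-fold and 2.83-fold apart in CPM itself, ranged by 0.99 and 0.79 on this scale and are not among the 3. *Btg2*, an antiproliferative gene, had 152, 481 and 608 counts, with line 2 3.48-fold above line 1 (interval 2.89 to 4.20). *Trp53inp1*, a gene of p53-dependent death and autophagy, had 19.3, 52.5 and 36.2 CPM. *Ephx1*, an epoxide hydrolase gene, had 11.2, 9.98 and 21.2 CPM. *Btg2* and *Trp53inp1* were lowest in line 1 and *Ephx1* in line 2, so the 3 genes did not share an order. The target with the highest mean was *Gtse1*, a G2 and S phase gene, with 119, 128 and 171 CPM.

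Line 2 was lowest for 5 of the 8 measured members, all of which differed. Of the 24 measured targets, 9 differed and were lowest in line 2. Over all genes tested, 19.5% differed and were lowest in line 2. Line 1 was lowest for 1 member and line 3 for 2, against 23.7% of all genes tested for either line. Line 3 was highest for 5 members and for 9 targets that differed, against 26.2% of all genes tested. Line 1 was highest for 1 member and line 2 for 2, against 20.0% and 20.6% of all genes tested. These counts by line were added after the values of the members had been seen, and *Prmt5* is among the 5 members although its lines 2 and 3 could not be told apart. The median deviation of the 24 targets from the mean of the lines was -0.03, -0.09 and 0.06 in lines 1, 2 and 3.

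**Figure D4:**
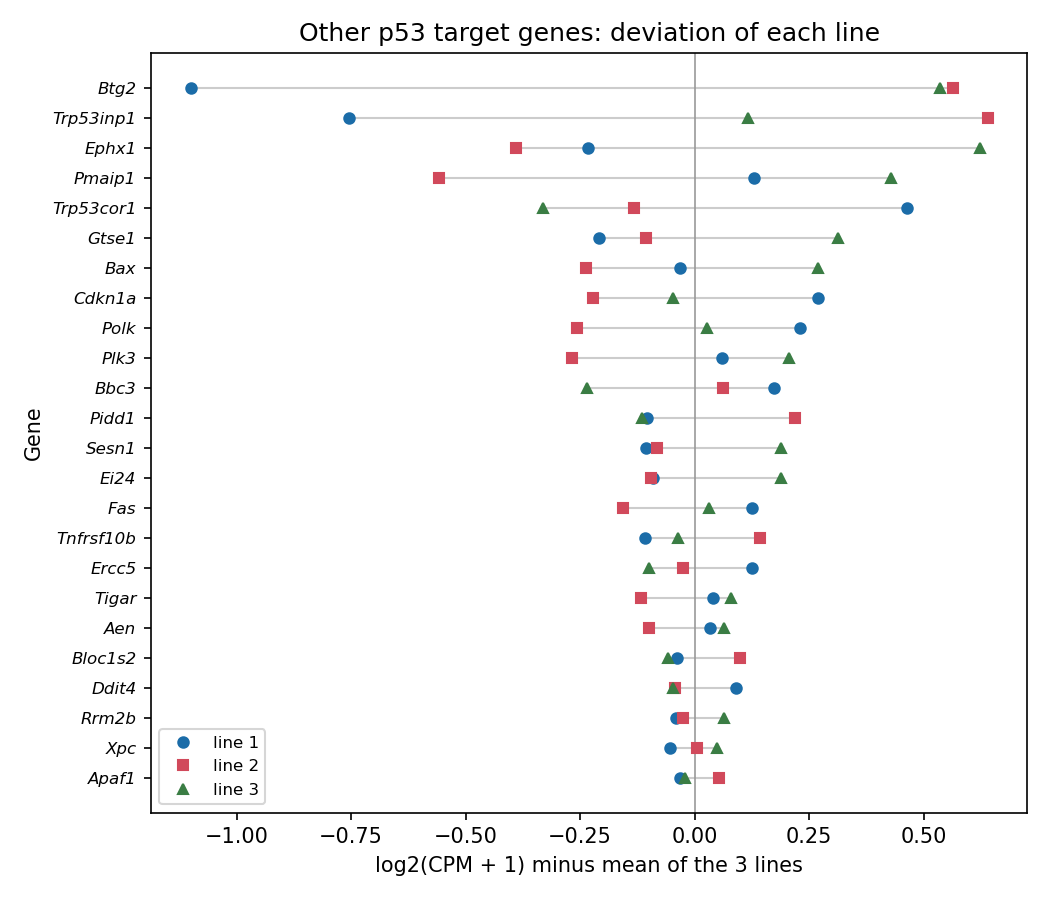
Distance of every line to the 3-line average on the log2(CPM + 1) scale for the 24 measured p53 targets outside the members, ordered by range. *Btg2* and *Trp53inp1* lead with line 1 lowest, and from *Bax* downward every gene stays within 0.3 of the average.

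Upstream of p53, all 14 regulators of the list were expressed and all 14 differed between lines, against 66.8% of all genes tested. *Cdkn2a*, whose locus encodes the MDM2 inhibitor p19ARF and the CDK inhibitor p16INK4a, was well expressed, with 235, 279 and 235 CPM (mean 250 ± 25.3 CPM, SD, n = 3). Counts per gene do not separate its transcripts. The highest regulator in CPM was the deubiquitinase gene *Usp7*, with 467, 461 and 439 CPM. The damage kinases *Atm*, with 101, 130 and 104 CPM, and *Chek1*, with 56.8, 72.0 and 59.1 CPM, were highest in line 2, whereas *Atr*, with 131, 113 and 89.6 CPM, was highest in line 1.

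On the log2(CPM + 1) scale, 2 of the 14 regulators were at least 2-fold apart, against 10.9% of all genes tested. They were *Sirt1*, a deacetylase of p53, and *Hipk2*, a p53 kinase. *Sirt1* had 20.2, 35.0 and 52.9 CPM, or a 2.62-fold difference between lines 3 and 1 (interval 2.35 to 2.92). *Hipk2* had 472, 732 and 1349 counts, or a 2.44-fold difference (interval 2.19 to 2.71). Both had the order of *Trp53*, with line 1 lowest and line 3 highest. Of all genes tested, 23.7% differed and were lowest in line 1, and 26.2% differed and were highest in line 3. The share with both was not counted, and a shared order over 3 lines only describes these libraries.

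**Figure D5:**
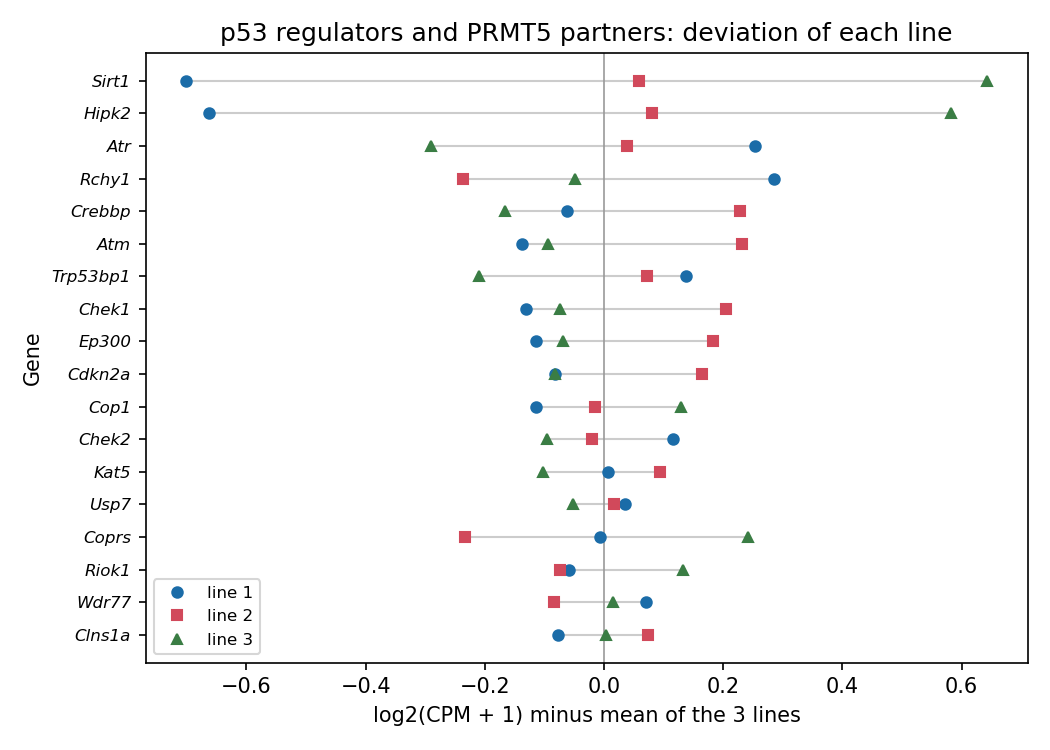
Distance of every line to the 3-line average on the log2(CPM + 1) scale for the 14 p53 regulators and the 4 PRMT5 partners. *Sirt1* and *Hipk2* spread by 1.35 and 1.25 with line 1 lowest and line 3 highest, and every other gene spreads by at most 0.54.

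Of the p53 relatives, *Trp73* had 0 counts in all lines, and *Trp63* was read at 9.95, 2.79 and 14.6 CPM. Line 3 was 5.24-fold above line 2 for *Trp63* (interval 3.94 to 7.09), which is the line order of *Zmat3*. With 3 lines, a shared order of a pair of genes is a description of these libraries. *Cdk6* itself, which in these lines encodes the kinase inactive protein, had 450, 334 and 239 CPM, the reverse of the order of *Trp53*. The median of 12 genes within 5 Mb of *Cdk6* had the same order, at 0.24, -0.03 and -0.26 around the average of the lines, and its part in the *Cdk6* level was not tested.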

How the data were processed

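The 3 K43M libraries of poly(A) RNA were analysed. The authors trimmed the reads with Trimmomatic, aligned them to mm10 with STAR, used FeatureCounts with the Gencode M13 annotation and deposited the raw counts of each gene. The strand setting and the treatment of reads with several matches are not given in the sources used here. The methods name a TruSeq kit and the labels the SENSE kit. A further 6 columns were not used here, and 50462 of 50686 identifiers were matched to Gencode M21 of the same assembly.

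Counts were scaled with edgeR 4.0.16 (TMM) in R 4.3.3. Genes with at least 10 counts in total were tested for homogeneity over the libraries by chi-square, since 1 genotype leaves no contrast for a quasi-likelihood fit. Fold intervals are exact (Clopper-Pearson, 95%), from counts and scaled library sizes. Ranges used a pseudocount of 1 CPM. Any pair of lines differed at no fewer than 6099 genes, so no library was counted as a duplicate. The labels name no batch. Python 3.11.15, numpy 2.4.6, pandas 2.3.3 and scipy 1.17.1 were used, and the test was checked on simulated data.

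Members and lists were chosen with earlier results of these data known. Genes named outside the members are those listed in the rule (*Cdk6*, *Cdkn1a*, *Cdkn2a*, *Bax*, *Bbc3*, PRMT5 partners, p53 family, ATF4 genes), those at least 2-fold apart with a mean of at least 5 CPM, and the highest gene of each list. *Pmaip1*, *Fas*, *Tnfrsf10b*, *Trp53cor1*, *Atm*, *Atr*, *Chek1*, the unmeasured targets, the *Zmat3* neighbours and the marker genes named were picked with their values in view. The settings varied were the scaling (DESeq2 1.42.0 or none beyond library size), other count filters, a pseudocount of 0.1 CPM, another gene length, and leaving out each line.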

Additional observations from a re-analysis of the deposited data

How the results depend on the processing

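No paired analysis was possible because every library has the same genotype. Of 64 chi-square calls of the members under an alternative, 55 stayed on their side of the adjusted p threshold. Of the other 9, 5 concern *Ppm1d*, with adjusted p from 0.052 to 0.54. The pseudocount enters only the range, so the calls under 0.1 CPM could not change. The number of members that differed was 7 or 8 with all lines, and ranged from 5 to 7 with a line left out, lowest without line 2. Members at least 2-fold apart ranged from 0 to 1, with 0 without line 2. Targets that differed ranged from 11 to 14 against 17, lowest without line 3. Regulators ranged from 9 to 12 against 14, lowest without line 2 and without line 3, and PRMT5 partners from 1 to 3, lowest without line 2. Of all genes tested, 54.3%, 54.5% and 47.1% differed without lines 1, 2 and 3, against 66.8% in the main setting. The share at least 2-fold apart was 7.22%, 7.34% and 4.79% without lines 1, 2 and 3, against 10.9%. Targets at least 2-fold apart were 3, ranged from 1 to 2 with a line left out, lowest without line 1 and without line 2, and were 5 with a pseudocount of 0.1 CPM, where 18.1% of all genes were. With library size alone they were 2, where 10.9% of all genes were. With no filter on low counts they were 4 of 26 targets, where 7.56% of 20436 genes were. Members lowest in line 2 and differing were 4 or 5, and targets from 7 to 10, in the settings that keep line 2. The background for this count also moved. In the main setting 2727 of 13974 genes differed and were lowest in line 2. Without line 1 they were 3684 of 13263, and without line 3 they were 2967 of 12948. With a line left out, fewer orders of the lines are possible. Depth limits *Eda2r*, *Phlda3* and other genes near 3 counts.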
